A study of Homo sapiens with 9 samples.

Results

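SKBR3 cells that received the first of 2 siRNAs against PVRL4 were compared with SKBR3 cells that received a control siRNA. The comparison uses 6 of the 9 libraries of the series, 3 with PVRL4 siRNA 1 and 3 with control siRNA, and pairs them by the replicate number in the sample titles. Of the 20812 genes in the deposited table, the 11184 with a mean of at least 1 RPM (reads scaled to a fixed library total) over these 6 libraries were tested. The filter lay between PAM16 at 0.997 RPM, just outside it, and MERTK at 1.002 RPM, just inside it.

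SKBR3 is an established line of human breast cancer cells in which ERBB2 is amplified, and its RNA was measured as 1 short amplicon per gene. Every group was grown in DMEM with fetal bovine serum, transfected with 10 nM siRNA in Lipofectamine RNAiMAX and collected after 48 h. The control group received the non-targeting ON-TARGETplus siRNA of Horizon Discovery, while PVRL4 siRNA 1 and PVRL4 siRNA 2 came from Integrated DNA Technologies, so supplier and target sequence change together between control and PVRL4 siRNA. The labels name no other treatment, and the siRNA sequences are not given in the sources used here. Whether libraries of a group come from separate cultures is also not said, so the spread behind the p-values may be technical. In bulk RNA, a change in every cell and a larger change in some of the cells cannot be told apart, nor can fewer cells of a kind and less RNA per cell.

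PVRL4, now named NECTIN4, encodes nectin-4, an adhesion molecule of epithelial cells that binds other nectins through its outer domains. An siRNA is a short RNA duplex loaded into the Argonaute complex, which cleaves messenger RNA that matches its guide strand. Cells also carry receptors for foreign RNA, among them RIG-I, MDA5 and PKR. These sensors lead to secretion of type I and type III interferons, whose receptors signal through JAK kinases. The kinases activate ISGF3, a transcription factor complex that holds STAT2 and IRF9 and binds the interferon-stimulated response element in the promoters of many antiviral genes, known as interferon-stimulated genes.

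PVRL4 itself was lower in every siRNA 1 library than in every control library. It was at 9.93, 7.86 and 11.6 RPM in control replicates 1, 2 and 3, and at 5.99, 4.36 and 4.67 RPM in siRNA 1 replicates 1, 2 and 3. The groups did not overlap, and 51.0% of the control mean remained. The log2 change was -0.84 ± 0.17 (SE; limma on log2(RPM + 1) with the replicate number as a block, adjusted p = 0.0135). The call was lost without control replicates 1 or 3 (adjusted p = 0.0727 and 0.167), without replicate 3 of siRNA 1 (0.105) and without the block (0.0600). siRNA 2 left less PVRL4, at 3.39, 2.91 and 2.58 RPM, and the 2 siRNAs differed by 0.60 on the log2 scale (limma adjusted p = 0.0386). Of 24 tested genes of nectins and cell junctions, PVRL4 was the 1 that passed the threshold.

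With siRNA 1, 133 genes were higher and 76 were lower than in control at an adjusted p of 0.05 (1.19% and 0.68% of the genes tested). Without the block limma called 71 and 24 genes (0.635% and 0.215%). On the reads recovered from the RPM values, edgeR with the block called 162 and 131 genes (1.45% and 1.17%). DESeq2 on the same reads called 89 and 64 genes (0.796% and 0.572%), with 87 of the 133 and 56 of the 76 among them. Genes named below that missed the threshold there include STAT2 (DESeq2 adjusted p = 0.361), B2M (0.226), TAP1 (0.178), APOL6 (0.109), SAMHD1 (0.0925) and PML (0.0549). The log2 changes ran from 0.42 to 7.32 in the higher genes and from 0.33 to 1.01 in size in the lower genes. These values, like all log2 changes below, are differences of log2(RPM + 1), and for genes near 1 RPM they are smaller than the true change. Groups did not overlap in 130 of the higher and 74 of the lower genes (6.44% and 5.62% of the genes tested lay apart upward and downward). Of the higher genes, 93 rose by over 1 on the log2 scale, and of the lower genes 1 did (FAM63B, -1.01). The median over all tested genes was 0.01. The counts rest on single libraries: the higher count was 46 without control replicate 1, 81 without siRNA 1 replicate 1 and 86 without siRNA 1 replicate 3. The lower count was 11, 44 and 34 without control replicates 1, 2 and 3 in turn, and 34 and 45 without replicates 1 and 3 of siRNA 1. With each of the 6 libraries left out in turn, 46 of the 133 higher genes and 10 of the 76 lower genes passed every time. A further limit lies in the filter. In 132 tested genes the control mean was under 1 RPM, so they could be tested only because they were higher with siRNA 1. Of the 133 higher genes 44 are of this kind, and of the 11052 other tested genes 89 were higher (0.805%). Counts of genes higher than control over the lists below are therefore also given without these genes. Shares of all tested genes to read them against are 1.19% higher and 0.68% lower by the adjusted p, and 5.79% and 4.99% at an unadjusted p under 0.05. Genes named below with no remark on a left-out library are among these 56 or did not pass the threshold at all. Exceptions are LGALS3BP, IL29, IL28A and IL28B. LGALS3BP missed the threshold without control replicate 1. IL29, IL28A and IL28B missed it without replicate 1 or replicate 3 of either group.

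**Figure D1:**
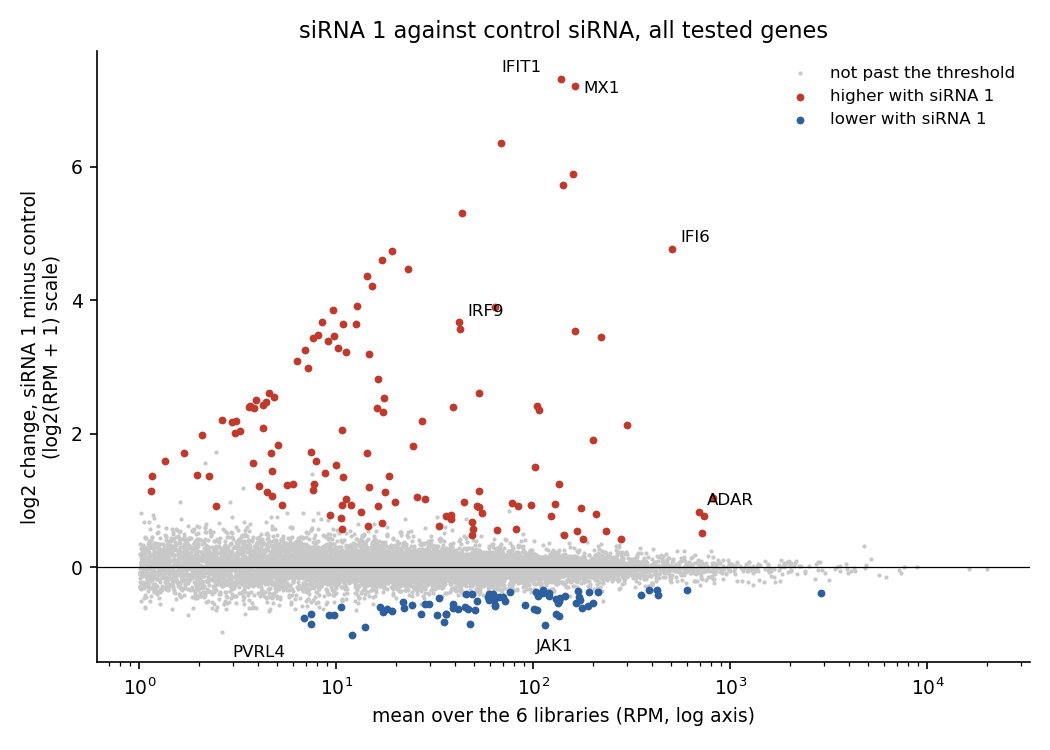
Each point is 1 of the 11184 tested genes, with its mean over the 6 libraries in RPM on the log horizontal axis and its log2 change (siRNA 1 minus control, log2(RPM + 1) scale) on the vertical axis. The 133 red points reach 7.32, while the 76 blue points stay between -1.01 and -0.33.

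The 3 siRNA 1 libraries did not carry the rise equally. Among the 133 higher genes the median log2 change was 2.51 in pair 1, 0.723 in pair 2 and 1.57 in pair 3, against 0.040, -0.020 and 0.010 over all tested genes. All 133 were higher in each pair, siRNA 1 replicate 1 had the highest siRNA 1 level for 128 of them, and siRNA 1 replicate 2 the lowest for 123. Their levels summed to 20505, 7865 and 11959 RPM in siRNA 1 replicates 1, 2 and 3, and to 4748, 5042 and 4687 RPM in the control replicates. The lower genes had closer pairs, with medians of -0.650, -0.459 and -0.469, and the order of the pairs that 119 of the 133 higher genes had was found in 20 of the 76 lower genes. Library totals, between 10145423 and 10707777 reads in the 6 libraries, did not follow that order. No label value separates the 3 siRNA 1 libraries, and what sets them apart was not tested.

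**Figure D2:**
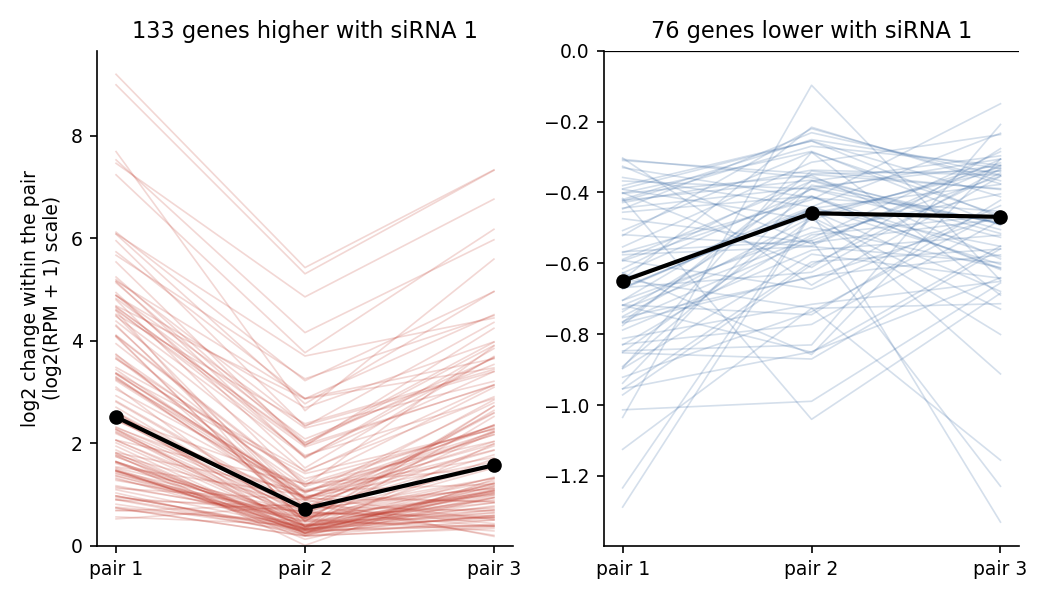
Each thin line is 1 gene and joins its log2 changes in the 3 replicate pairs (siRNA 1 minus control of the same number, log2(RPM + 1) scale), and black points are medians. The higher genes (left) have medians of 2.51, 0.723 and 1.57, and the lower genes (right) -0.650, -0.459 and -0.469; the pairs have no order of their own.

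Genes of the type I interferon response made up 59 of the 133 higher genes. Of 64 genes on that list, 63 were tested, 59 were higher and 0 lower with siRNA 1, against 1.19% higher over all genes tested. Without the block 48 were higher, and in DESeq2 45 were. The median log2 change of the 63 was 2.54, or 2.99 with the 6 genes that had 0 reads in every control library set at their lower bound. Within the pairs the medians were 4.11, 1.24 and 2.72. Of the 35 members with a control mean of at least 1 RPM 32 were higher, at a median of 2.06. Of the 59, 41 passed with each library left out, and without control replicate 1 those 41 remained. In the direct comparison with siRNA 2, which uses no control library, 61 of the 63 were higher with siRNA 1 (6.54% of all tested genes were). That count is a description, since 28 of the 63 passed the filter only through the siRNA 1 libraries, 1 side of this comparison. For the 35 others the count against siRNA 2 is not given.

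The highest-fold genes of the response were close to silent in control cells. IFIT1, which binds RNA that lacks the cap marks of the host, had 0, 0.095 and 0.197 RPM in control replicates 1, 2 and 3, and 587, 46.1 and 192 RPM in siRNA 1 replicates 1, 2 and 3. MX1, a dynamin-like GTPase that traps viral particles, had 0.382, 0.284 and 0.394 RPM in control and 703, 49.8 and 222 RPM with siRNA 1. IFI6, a small membrane protein that protects the endoplasmic reticulum from viral use, started higher, at 24.4, 33.0 and 26.8 RPM, and reached 1766, 315 and 863 RPM. In all 3 genes the siRNA 1 libraries were above every control library, in the order replicate 1, replicate 3, replicate 2. The log2 changes were 7.32 ± 0.53 for IFIT1 and 7.21 ± 0.57 for MX1 (SE). Both passed the filter only through the siRNA 1 libraries, so their changes are a description and no test is given. IFI6 rose by 4.76 ± 0.36 (SE; limma adjusted p = 1.09e-06). Other large rises were those of IFI27 (4.74), SAMD9 (4.47), XAF1 (4.37) and TRIM22 (4.21). IFI44 had 0 reads in every control library and 66.5, 5.81 and 30.2 RPM with siRNA 1, at least 118-fold higher against a floor of 3 reads per control library. IFI44L, its paralog, was at least 58.8-fold higher by the same floor.

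**Figure D3:**
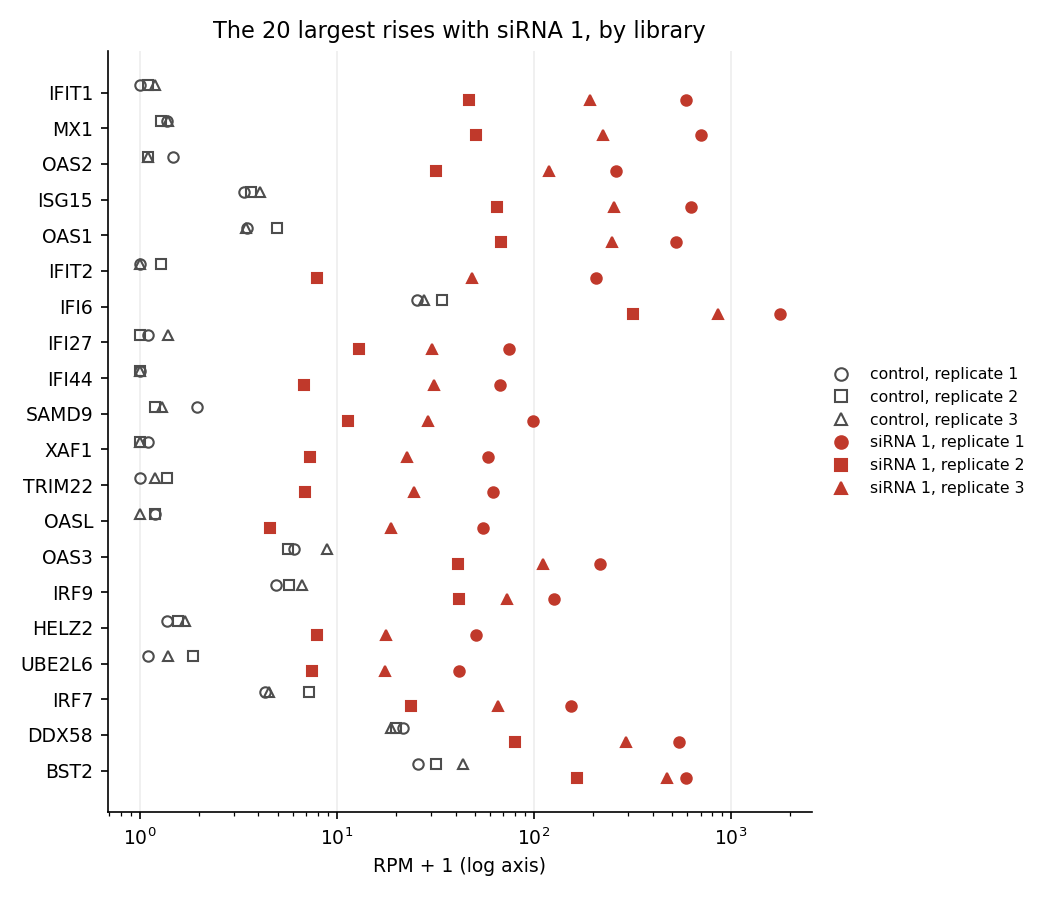
Levels in each of the 6 libraries, as RPM + 1 on a log axis, of the 20 genes with the largest rise among those with a mean of at least 10 RPM and groups that do not overlap. In each gene shown the filled siRNA 1 symbols lie right of the open control symbols, with replicate 1 (circle) farthest right and replicate 2 (square) nearest to control.

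The promoters of some of these genes hold the letters of the response element that ISGF3 binds. The 8 stretches below lie upstream of the annotated start (RefSeq, GRCh38.p14, on the strand of the gene) and belong to the 8 genes with the smallest p-values among those that passed with each library left out and hold a match before the start. Capitals mark matches to GAAANNGAAA, the core of the interferon-stimulated response element, or to its reverse complement TTTCNNTTTC, joined where matches overlap.
IFIT1 (chr10:89392487-89392546, plus strand): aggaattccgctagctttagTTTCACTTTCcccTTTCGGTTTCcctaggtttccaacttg
OAS3 (chr12:112938311-112938370, plus strand): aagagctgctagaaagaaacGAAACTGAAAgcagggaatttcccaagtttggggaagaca
IFI6 (chr1:27672309-27672368, minus strand): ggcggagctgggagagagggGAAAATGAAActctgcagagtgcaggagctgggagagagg
ISG15 (chr1:1013364-1013423, plus strand): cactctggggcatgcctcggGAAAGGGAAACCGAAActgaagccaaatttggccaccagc
IFI27 (chr14:94110608-94110667, plus strand): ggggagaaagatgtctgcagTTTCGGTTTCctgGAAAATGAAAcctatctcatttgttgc
DDX60 (chr4:168318801-168318860, minus strand): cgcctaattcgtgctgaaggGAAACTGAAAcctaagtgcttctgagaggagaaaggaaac
BST2 (chr19:17405721-17405780, minus strand): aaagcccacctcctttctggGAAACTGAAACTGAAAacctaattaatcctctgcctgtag
SAMD9 (chr7:93118076-93118135, minus strand): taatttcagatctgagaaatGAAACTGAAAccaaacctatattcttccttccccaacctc
IFIT1 and IFI27 carry 2 separate matches in the stretch shown, while ISG15 and BST2 carry 2 that overlap.

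The motif was searched on both strands in windows from 250 bases before to 50 bases after the start, 1 window a gene. A window was found for 97 of the 133 higher genes, 65 of the 76 lower genes and 8785 of the 11184 tested genes. Since fewer than 80% of the higher genes have a window, the check over that set is void, and the shares describe the matched windows alone. Of the 97 windows of higher genes 44 (45.4%) hold GAAANNGAAA, of the 65 of lower genes 1 (1.54%), and of all tested genes with a window 2.80%. It is in 3.65% of all 27305 RefSeq promoter windows. Among interferon-response members with a window 27 of 48 hold it, and among the higher genes off that list 17 of 49 do. TTCNNNGAA, the gamma-activated site, is in 18 of the 97 windows of higher genes (18.6%), in 2 of the 65 of lower genes and in 6.31% of those of tested genes. A match is a description of letters and does not show binding.

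Of the interferons themselves, the type III genes were the ones detected above the filter. IL29 (now IFNL1) had 0 reads in every control library and 23.0, 0.290 and 5.60 RPM in siRNA 1 replicates 1, 2 and 3, at least 33.3-fold higher in mean against the floor of 3 reads. IL28A (IFNL2) went from 0 to 16.0, 0.387 and 5.23 RPM, at least 25.0-fold, and IL28B (IFNL3) from 0 to 7.53, 0.290 and 2.24 RPM, at least 11.6-fold. IL28A and IL28B are near-identical copies, and how far their amplicons tell them apart is not known here. In siRNA 1 replicate 2 these levels equal 3 to 4 reads, at the floor. These 3 genes passed the filter only through the siRNA 1 libraries, so their levels are a description and no test is given. No siRNA 2 library held a read of the 3 genes. IFNB1, a type I interferon gene that epithelial cells can switch on, stayed under the filter at 0.095, 0 and 0 RPM in control and 2.32, 0 and 0.560 RPM with siRNA 1. Of 21 interferon genes in the table, 12 had 0 reads in all 6 libraries.

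Sensors of foreign RNA and DNA rose in 13 of 19 tested members with 0 lower, at a list median of 1.24. With a control mean of at least 1 RPM there were 15 members, of which 9 were higher. DDX58, which encodes RIG-I, the receptor for short duplexes with a triphosphate end, was at 20.6, 18.9 and 17.7 RPM in control and at 542, 78.9 and 293 RPM with siRNA 1 (log2 change 3.54 ± 0.36). IFIH1, which encodes MDA5, the receptor for long duplexes, went from 8.21, 12.6 and 9.86 to 121, 29.2 and 54.2 RPM (2.41 ± 0.31). Both genes had every siRNA 1 library above every control library (limma adjusted p = 2.1e-05 and 0.000209). DHX58, a regulator of both receptors, rose by 3.48. EIF2AK2, the kinase PKR that halts translation when bound to duplex RNA, went from 87.5, 68.7 and 75.9 to 504, 159 and 314 RPM (1.91 ± 0.19). ADAR, which edits adenosines in duplex RNA, was abundant from the start at 490, 495 and 484 RPM and rose to 1104, 698 and 865 RPM (0.83 ± 0.10). The oligoadenylate synthetases OAS2, OAS1 and OAS3, which make the messenger that activates RNase L, rose by 6.36, 5.73 and 3.90. OASL, a gene of the same family, rose by 3.91. MYD88, the adaptor of Toll-like receptors, also rose (0.80, adjusted p = 0.00850), but not without control replicate 1 (0.202), siRNA 1 replicate 3 (0.0504) or the block (0.170).

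IRF9 and STAT2 of the ISGF3 complex were higher with siRNA 1, and the kinase JAK1 was lower. IRF9, its DNA-binding subunit, was at 3.91, 4.74 and 5.62 RPM in control and at 125, 40.8 and 72.3 RPM with siRNA 1. The siRNA 1 libraries lay far above control, and the log2 change was 3.67 ± 0.25 (limma adjusted p = 9.59e-07). STAT2 went from 28.1, 34.7 and 30.4 to 111, 41.5 and 71.7 RPM (1.14 ± 0.21, adjusted p = 0.00728), and its call was lost without control replicate 1 (0.178) or siRNA 1 replicate 3 (0.0628). JAK1, which is bound to the receptors of type I, II and III interferons, was at 159, 141 and 142 RPM in control and at 72.5, 84.8 and 86.2 RPM with siRNA 1. The JAK1 groups did not overlap, 55.0% of the control mean remained, and the log2 change was -0.86 ± 0.09 (limma adjusted p = 3.71e-05). Its level with siRNA 2 was 146, 154 and 153 RPM, and siRNA 1 differed from siRNA 2 by -0.89 (limma adjusted p = 1.69e-05). Within pairs 1, 2 and 3 JAK1 changed by -1.13, -0.73 and -0.71, and it was called in each of the 6 fits that left a library out. The partner kinase TYK2 was at 15.4, 16.9 and 17.3 RPM in control and 16.9, 16.7 and 17.7 RPM with siRNA 1, with overlapping groups and a log2 change of 0.05 that was -0.0014 under quantile scaling. The receptor chain IFNAR1 was at 64.1, 53.4 and 60.0 RPM in control and 43.7, 45.1 and 51.7 RPM with siRNA 1 (-0.33, limma adjusted p = 0.121), and IFNAR2 was at 39.3 to 40.4 RPM in control and 30.2 to 40.0 RPM with siRNA 1 (-0.20, adjusted p = 0.549). Over the 15 receptor, JAK and STAT genes the median log2 change was 0.05.

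Of 8 tested interferon regulatory factors, IRF7 and IRF1 passed the threshold. IRF7, which drives interferon gene transcription once induced, was at 3.34, 6.25 and 3.55 RPM in control and 154, 22.7 and 64.4 RPM with siRNA 1 (3.57 ± 0.39, limma adjusted p = 4.6e-05). Each siRNA 1 library was above each control library. IRF1 went from 8.02, 14.2 and 8.48 to 40.7, 18.0 and 16.0 RPM (1.12, adjusted p = 0.0220). The IRF1 call was lost without the block (0.189), control replicate 1 (0.331), siRNA 1 replicate 1 (0.145) or siRNA 1 replicate 3 (0.0736). IRF3, the factor that sensors activate by phosphorylation, was at 75.3 to 80.4 RPM in control and 77.7 to 85.8 RPM with siRNA 1 (0.06, adjusted p = 0.906). Among 16 tested genes that damp interferon signalling, TRIM21, which encodes an antibody receptor and ubiquitin ligase, was higher (2.54). USP18, the protease that removes ISG15 and blocks the receptor, was at 47.2, 58.3 and 46.4 RPM in control and 162, 61.8 and 75.2 RPM with siRNA 1, short of the threshold (0.84, limma adjusted p = 0.0571).

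ISG15, a ubiquitin-like protein that is attached to other proteins during infection, rose with most of the enzymes that handle it, in 6 of 8 tested genes of the list (median 2.01; 3 of the 5 with a control mean of at least 1 RPM). ISG15 was at 2.39, 2.65 and 3.06 RPM in control and 624, 64.2 and 253 RPM with siRNA 1 (5.89 ± 0.46, limma adjusted p = 1.65e-06). Its conjugating enzyme UBE2L6 went from 0.095, 0.853 and 0.394 to 40.5, 6.49 and 16.6 RPM (3.64 ± 0.41). No test is given for UBE2L6, which passed the filter only through the siRNA 1 libraries. Both had no overlap between the groups. The ligases HERC6 (2.99) and TRIM25 (0.98) rose as well. The activating enzyme UBA7 went from a control mean of 3.31 RPM to 12.4 RPM (1.59) and missed the threshold without control replicate 1 (limma adjusted p = 0.0602).

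Genes that block viral entry, replication or release rose in 20 of 26 tested members, at a median of 2.11, or 2.27 with 3 genes at their lower bound. Among the 16 members with a control mean of at least 1 RPM 10 were higher, at a median of 1.03. BST2, tetherin, which holds budding virions at the membrane, was at 24.8, 30.8 and 42.6 RPM in control and 590, 165 and 471 RPM with siRNA 1 (3.45 ± 0.30). IFITM3 and IFITM1, membrane proteins that hinder viral fusion, rose by 2.35 and 2.41. They are close paralogs, so reads may be shared between them. SAMHD1, which breaks down deoxynucleotides, went from 6.11, 7.77 and 8.38 to 88.4, 15.9 and 36.0 RPM (2.19 ± 0.33). CMPK2, a nucleotide kinase, rose by 3.43, and TRIM5, which recognises retroviral capsids, by 1.83. Each of these genes had non-overlapping groups. CMPK2 passed the filter only through the siRNA 1 libraries, so no test is given for it. The others had limma adjusted p = 3.65e-06 to 0.0016. RSAD2, viperin, had 0 reads in control and 21.5, 0.678 and 5.04 RPM with siRNA 1, at least 31.5-fold higher in mean against the floor of 3 reads. RSAD2 passed the filter only through the siRNA 1 libraries, so its level is a description. No test is given for RSAD2, which also missed the threshold without control replicate 1 or without the block. Of the 20 called members 11 were called without control replicate 1.

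Among ADP-ribosyltransferases and their partners 5 of 17 tested genes were higher and 1 lower, with a median of 0.23. Of the 5 higher genes 3 had a control mean under 1 RPM, and 3 of the 5 passed without control replicate 1. PARP14 went from 0.382, 0.189 and 0.493 RPM to 39.7, 4.84 and 12.8 RPM (3.46 ± 0.37). PARP9 and its ubiquitin ligase partner DTX3L rose by 3.25 and 2.81, and every siRNA 1 library of the 3 genes was above every control library. PARP11, of the same family, was the lower member, at 8.49, 9.47 and 10.2 RPM in control and 4.35, 5.13 and 7.004 RPM with siRNA 1 (-0.69, limma adjusted p = 0.0310). The PARP11 call was lost without any 1 of the 6 libraries (adjusted p = 0.0736 to 0.316) and without the block (0.263). Nuclear body genes were higher in 8 of 13 and lower in 1, and in 5 of the 10 with a control mean of at least 1 RPM they were higher. Of the 8, 3 passed without control replicate 1, and 4 without control replicate 3, without replicate 1 or 3 of siRNA 1, or without the block. PML, the scaffold of these bodies, went from 2.39, 3.69 and 2.96 to 33.7, 8.04 and 13.4 RPM (2.06 ± 0.30, limma adjusted p = 0.000942). SUMO3, a modifier that joins the bodies, went from 219, 191 and 180 to 141, 145 and 146 RPM (-0.44, adjusted p = 0.00766). The SUMO3 call was lost without control replicate 1 (0.133), siRNA 1 replicate 1 (0.112) or the block (0.0662).

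Genes that load peptide on MHC class I were higher in 9 of 20 tested members and lower in 0, at a median of 0.54 (3 higher without the block). Of the 18 with a control mean of at least 1 RPM 8 were higher. TAP1, a subunit of the peptide transporter, was at 48.5, 52.9 and 41.3 RPM in control and 274, 75.4 and 120 RPM with siRNA 1 (1.4996 ± 0.23, limma adjusted p = 0.00159). B2M, the light chain of class I, was at 477, 579 and 542 RPM in control and 1193, 710 and 880 RPM with siRNA 1 (0.77 ± 0.14, adjusted p = 0.00468). Neither gene had overlapping groups. Of the 9 called members, 0 passed without control replicate 1 (limma adjusted p = 0.0590 to 0.316), where TAP1 was at 0.0590 and B2M at 0.130. Without siRNA 1 replicate 1, 5 of the 9 passed, without siRNA 1 replicate 3, 4, and without control replicate 3, 6. Of 5 tested class II genes 0 passed in limma (0 at an unadjusted p under 0.05). Guanylate-binding proteins and apolipoproteins L rose in 5 of 8 tested genes (3 of the 6 with a control mean of at least 1 RPM, and 3 of the 8 without the block). They were led by APOL6 (2.32, limma adjusted p = 0.00192) and GBP4 (2.20). Of the 5, 2 passed the filter only through the siRNA 1 libraries, GBP4 among them, so no test is given for GBP4. Without control replicate 1 none of the 5 passed (limma adjusted p = 0.0706 to 0.308, with APOL6 at 0.0706).

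Secreted and surface ligands moved in part. CCL5, a chemokine that attracts T cells, went from 0.095, 0.379 and 0.197 RPM to 25.9, 3.68 and 7.75 RPM (3.08 ± 0.41), with no overlap. It passed the filter only through the siRNA 1 libraries, so no test is given. CXCL10, another chemokine of the interferon response, was at 1.72, 3.41 and 3.65 RPM in control and 23.5, 2.81 and 10.1 RPM with siRNA 1, where replicate 2 lay within the control range (1.40, limma adjusted p = 0.106). Of 12 tested chemokines and cytokines 3 were higher and 0 lower, and 2 of the 3, CCL5 among them, had a control mean under 1 RPM. Without control replicate 1, 1 of the 3 passed. LGALS9, galectin-9, a ligand of the TIM-3 receptor, went from 0.764, 0.663 and 1.08 to 41.6, 5.33 and 17.4 RPM (3.22 ± 0.36), again with every siRNA 1 library above control. LGALS9 too passed the filter only through the siRNA 1 libraries, and no test is given. CD274, which encodes PD-L1, went from 2.48, 3.60 and 2.27 to 13.5, 5.13 and 6.63 RPM (1.23, limma adjusted p = 0.0110). Without control replicates 1 or 3 the CD274 call was lost (0.209 and 0.0756), and likewise without replicates 1 or 3 of siRNA 1 (0.120 and 0.0523) or the block (0.0502). Of 16 tested checkpoint ligands 4 were higher, and of the 13 with a control mean of at least 1 RPM 2 were. Of the 4, 1 passed without control replicate 1 or without replicate 1 of siRNA 1, and 2 without replicate 3 of either group or without the block.

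The lists of NF-kappaB, the integrated stress response, p53 and the small RNA pathway, which can also answer to foreign RNA or stress, held 0 calls. Of 20 tested NF-kappaB subunits and targets limma called 0, with a median of 0.12, but 4 were higher and 0 lower at an unadjusted p under 0.05, where 5.79% of all tested genes were higher. TNFAIP3, the feedback inhibitor A20, was at 2.67, 6.92 and 4.34 RPM in control and 12.5, 8.91 and 5.42 RPM with siRNA 1 (0.82, limma adjusted p = 0.118). Of 22 genes of the integrated stress response 0 were called (2 higher and 1 lower at an unadjusted p under 0.05; median 0.01), and of 18 p53 targets 0 (1 and 0; median -0.03). Of 29 cell death genes 4 were higher (1.19% over all tested genes), led by XAF1, an inhibitor of anti-apoptotic XIAP. Of the 4, 3 had a control mean under 1 RPM, 2 passed without the block and 1 passed without control replicate 1. The member with a control mean above it was CASP4, the caspase that senses bacterial lipopolysaccharide, at 36.8, 38.6 and 41.1 RPM in control and 90.5, 60.7 and 60.1 RPM with siRNA 1 (0.82, adjusted p = 0.00574), whose call was lost without control replicate 1 (0.130). Of 15 genes of the small RNA pathway 0 were called (1 and 0 at an unadjusted p under 0.05).

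**Figure D4:**
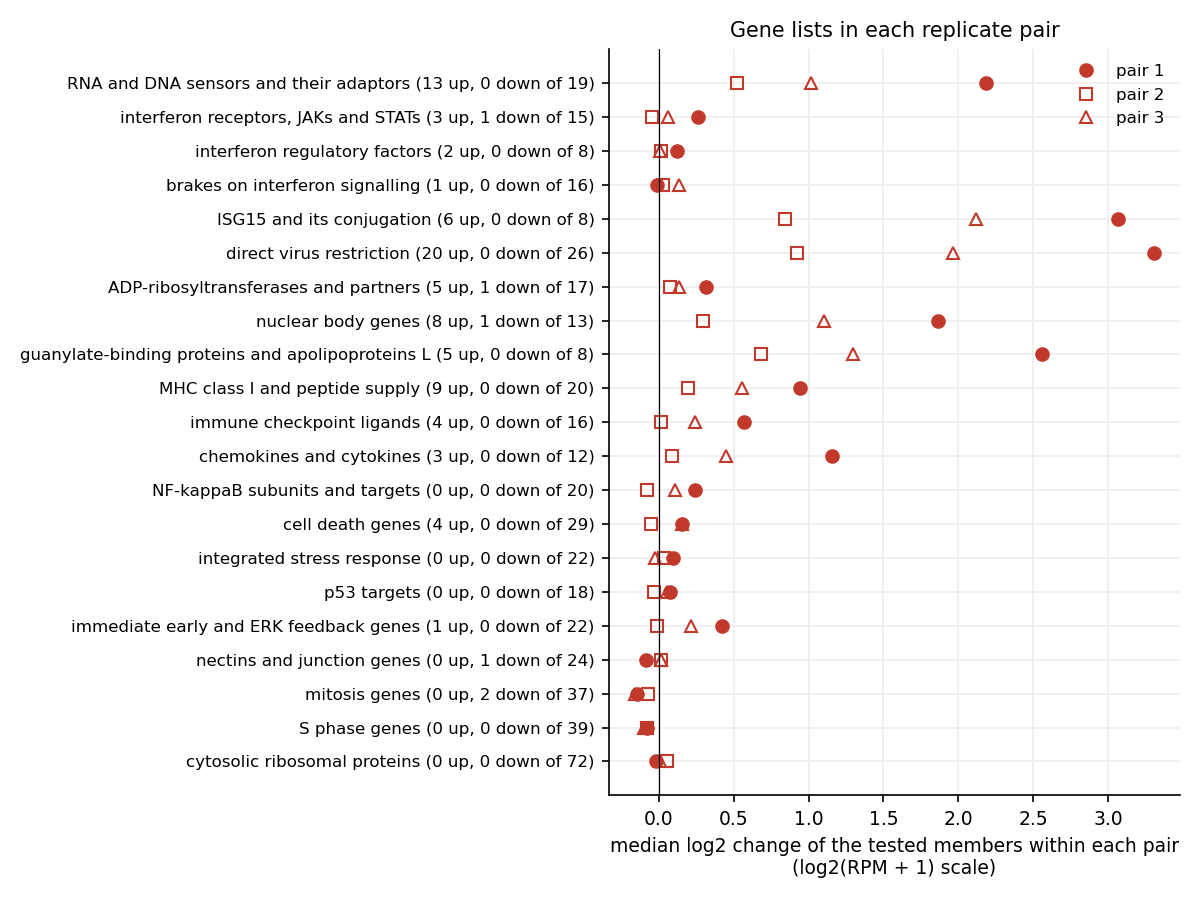
Median log2 change of the tested members of 21 gene lists in each replicate pair (siRNA 1 minus control of the same number, log2(RPM + 1) scale), with the number of members called higher (up) and lower (down) by limma in brackets, members with a control mean under 1 RPM included. For ISG15 and its conjugation, virus restriction and the sensors, pair 1 lies farthest right and pair 2 nearest to 0, while the ribosomal protein and S phase lists lie between -0.10 and 0.06 in every pair.

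Outside the lists, 37 of the 133 higher genes were found. TRANK1, a large protein of unknown function, went from 0.477, 0.663 and 0.197 to 40.1, 2.71 and 16.8 RPM (3.28 ± 0.47). No test is given for it, since it passed the filter only through the siRNA 1 libraries. Every siRNA 1 library of TRANK1 was above control. TRIM38 (1.37), TRIM14 (0.96) and TRIM56 (1.06), members of the tripartite motif family that act on sensor signalling, were higher too (limma adjusted p = 0.00179, 0.00404 and 0.00574). Their calls were lost without control replicate 1 (0.0553, 0.118 and 0.133), and that of TRIM14 also without siRNA 1 replicate 3 (0.0513). MT2A, a metallothionein that binds zinc and copper, was at 671, 578 and 510 RPM in control and 1086, 806 and 661 RPM with siRNA 1. The groups overlapped, since siRNA 1 replicate 3 lay below control replicate 1, but MT2A was higher within each pair (0.52, limma adjusted p = 0.00278). The MT2A call was lost without control replicate 1 (0.0706) or the block (0.436).

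The lower genes were spread over many functions, and 70 of the 76 were on no list. TUG1, a long noncoding RNA, was at 175, 169 and 160 RPM in control and 99.2, 102 and 102 RPM with siRNA 1 (-0.73 ± 0.08, limma adjusted p = 4.5e-05). RCN2, a calcium-binding protein of the endoplasmic reticulum, went from 168, 158 and 157 to 86.4, 104 and 106 RPM (-0.70 ± 0.09, adjusted p = 0.000219). PPARD, a fatty acid receptor of the nucleus, went from 42.9, 46.5 and 46.4 to 21.6, 25.4 and 29.4 RPM (-0.81 ± 0.11, adjusted p = 0.000623). None of the 3 genes had overlapping groups, and 60.2%, 61.4% and 56.3% of the control mean remained. MESDC2, a chaperone of the Wnt co-receptors LRP5 and LRP6, went from 59.9, 58.0 and 67.0 to 34.9, 39.7 and 28.0 RPM (-0.84 ± 0.12, adjusted p = 0.000733). ERCC6L, the helicase PICH of anaphase bridges, went from 20.7, 18.1 and 16.5 to 9.76, 8.62 and 10.1 RPM (-0.89 ± 0.13, adjusted p = 0.000793). KLF11, a zinc finger factor of TGF-beta signalling, went from 75.5, 75.6 and 79.5 to 50.3, 51.2 and 52.2 RPM (-0.58 ± 0.08, adjusted p = 0.00102). These 3 also lay below control in every library. DPY19L3, a C-mannosyltransferase, fell by 0.71 on the log2 scale, PANK3, a pantothenate kinase of coenzyme A synthesis, fell by 0.60, and B4GALT1, a galactosyltransferase of the Golgi, fell by 0.50. With JAK1 these are the 10 lower genes that passed with each library left out, though B4GALT1 missed the threshold without the block (0.230).

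Further lower genes missed the threshold when control replicate 1 was left out. FAM63B, a deubiquitinase now named MINDY2, had the largest fall, from 16.8, 14.6 and 17.2 to 6.57, 10.4 and 6.26 RPM (-1.01 ± 0.16, limma adjusted p = 0.00192). GNA12, a G protein subunit, went from 127, 128 and 125 to 68.1, 93.8 and 82.3 RPM (-0.64), and NAPG, an adaptor of vesicle fusion, from 49.4, 46.0 and 39.3 to 26.1, 30.6 and 24.8 RPM (-0.70). GALNT7, which starts O-glycans, went from 157, 152 and 163 to 95.9, 116 and 116 RPM (-0.53). All siRNA 1 libraries of these 4 genes were below all control libraries. Without control replicate 1 their adjusted p was 0.0554 (FAM63B), 0.0554 (GNA12), 0.0543 (NAPG) and 0.0543 (GALNT7). CCP110, a cap protein of centrioles, was at 56.7, 40.4 and 38.8 RPM in control and 29.5, 23.8 and 28.1 RPM with siRNA 1 (-0.70, limma adjusted p = 0.00278; 0.0706 without control replicate 1).

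**Figure D5:**
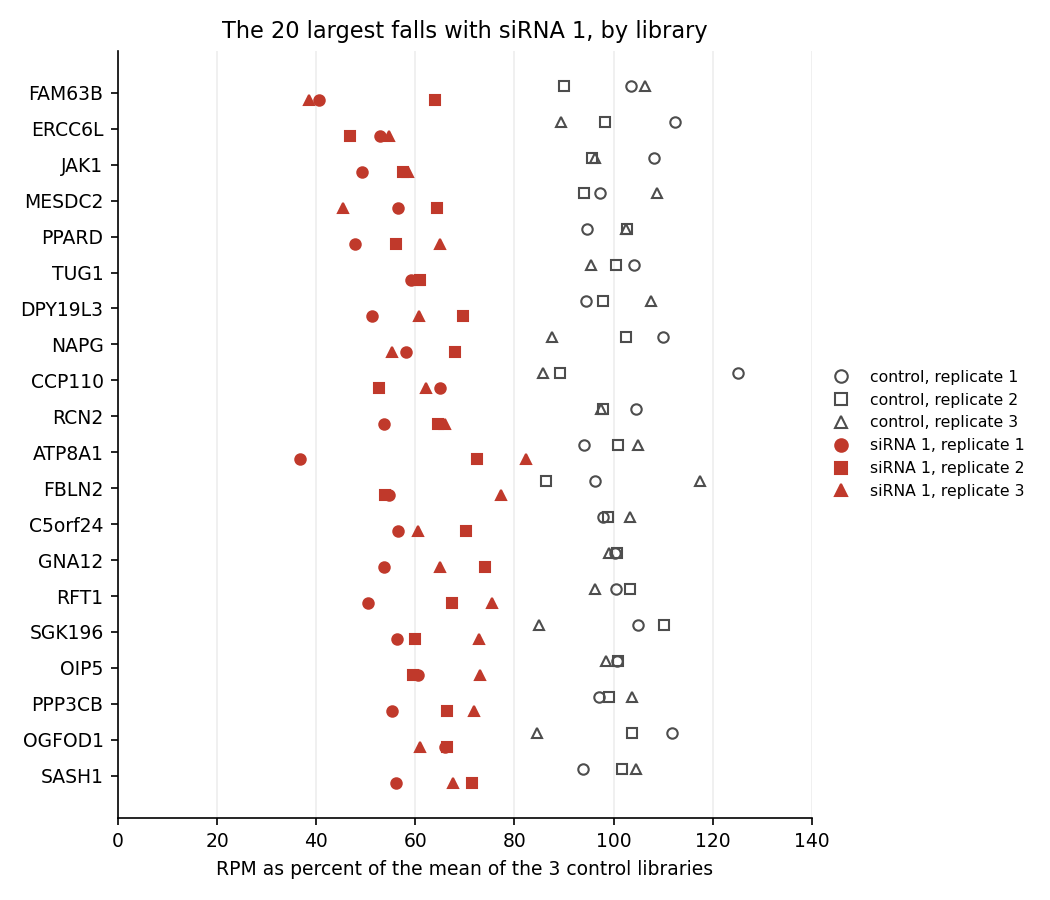
The 20 genes with the largest fall among those with a mean of at least 10 RPM and groups that do not overlap, each library as percent of the mean of the 3 control libraries. The filled siRNA 1 symbols lie left of the open control symbols in each gene shown, and for JAK1, PPARD and TUG1 the siRNA 1 means are 55.0%, 56.3% and 60.2% of control.

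Genes of cell division leaned to lower values with few calls. Of 37 mitosis genes 32 had a negative log2 change, against 46.0% of all tested genes, 2 were called lower (ERCC6L and BUB3) and the median was -0.13, against 0.01 over all genes. At an unadjusted p under 0.05 limma had 11 of the 37 lower and 0 higher (4.99% and 5.79% of all tested genes). The pair medians were -0.15, -0.07 and -0.16. BUB3, a spindle checkpoint protein, was at 155, 136 and 122 RPM in control and 117, 88.5 and 101 RPM with siRNA 1 (-0.43, limma adjusted p = 0.0226). Without control replicates 1 or 2 the BUB3 call was lost (0.250 and 0.164), as it was without replicates 2 or 3 of siRNA 1 (0.165 and 0.0946) or the block (0.187). Of 39 S phase genes 32 were negative with a median of -0.09, and limma called 0 (0 higher and 3 lower at an unadjusted p under 0.05). The cytosolic ribosomal proteins (72 tested), cholesterol synthesis genes (23), chaperones of the endoplasmic reticulum (25), luminal markers (17) and ERBB family genes (8) held 0 calls, with medians between 0.00 and 0.06.

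Against siRNA 2, the other duplex aimed at PVRL4, most of the same genes differed. Of the 133 genes higher than control, 116 were also higher with siRNA 1 than with siRNA 2 (6.54% of all tested genes were) and 0 were lower. However, 44 of the 133 passed the filter only through the siRNA 1 libraries, 1 side of this comparison. The count against siRNA 2 without those 44 is not given. Of the 76 genes lower than control, 57 were also lower than with siRNA 2 (2.79% of all tested genes were) and 1, PVRL4, was higher. That count of 57 was 15 without the block, and with a library left out it was 11, 36 and 26 (control replicates 1, 2 and 3), or 22 and 30 (replicates 1 and 3 of siRNA 1). IFIT1 stood at 0.599, 0.291 and 5.92 RPM in siRNA 2 replicates 1, 2 and 3, and the difference from siRNA 1 was 6.17 on the log2 scale. No test is given for IFIT1, which passed the filter only through the siRNA 1 libraries. RCN2 stood at 161, 155 and 169 RPM with siRNA 2 and differed by -0.71 (limma adjusted p = 0.000136). PARP11 (4.19, 6.98 and 7.06 RPM with siRNA 2) and PANK3 (170, 181 and 163 RPM) had levels with siRNA 2 for which the difference from siRNA 1 missed the threshold (-0.12 and -0.30, adjusted p = 0.715 and 0.0542). Both comparisons of siRNA 1 use the same 3 siRNA 1 libraries, so the counts of 116 and 57 describe these libraries and are no independent check. The calls of both PVRL4 siRNAs against control share the 3 control libraries and are not counted against each other.

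Leukocyte, plasmacytoid dendritic cell, fibroblast and endothelial markers each summed to at most 18.7 RPM in the 6 libraries. Of 20 leukocyte genes 9, PTPRC among them, had no read in the 6 libraries, and CSF1R was the 1 that passed the filter, at 6.87, 10.5 and 7.98 RPM in control and 4.06, 7.36 and 6.26 RPM with siRNA 1. The summed level of the list was 7.63 to 10.99 RPM in control and 5.12 to 8.62 RPM with siRNA 1. Of 10 genes of plasmacytoid dendritic cells, the main interferon producers of blood, TCF4 alone passed the filter, and the sum was 7.20 to 8.59 RPM in control and 6.26 to 6.95 RPM with siRNA 1. Fibroblast genes summed to 4.29 to 5.72 RPM in control and 4.73 to 8.03 RPM with siRNA 1, and endothelial genes to 13.2 to 18.7 and 14.3 to 16.8 RPM. None of the 5 tested markers passed in limma (1 at an unadjusted p under 0.05, CSF1R), while luminal markers of SKBR3 summed to 14394 to 15508 RPM in the 6 libraries.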

How the data were processed

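RNA of 9 SKBR3 libraries was read as 1 amplicon per gene from 100 ng of total RNA (Ion AmpliSeq Transcriptome Human Gene Expression kit), per the labels' protocols. The authors deposited RPM values for 20812 genes, and the submitters' processing notes name the build hg19. Aligner and counter are not given in the sources used here. Equal library sums remove differences in RNA per cell. The RPM steps gave back whole reads for 99.96% to 100% of values in the 6 compared libraries (tolerance 0.1 read), with 10145423 to 10707777 reads a library, 1 read being worth 0.0934 to 0.0986 RPM. Reads carry no molecular identifiers, so floors cover counting error only.

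Computed here were limma 3.58.1 fits (R 4.3.3, trended prior) on log2(RPM + 1) of all 9 libraries in 3 groups with the replicate number as a block, two-sided, with Benjamini-Hochberg adjustment over the 11184 genes whose mean over the 6 libraries reached 1 RPM and a threshold of 0.05. Libraries were paired by the number in their titles: deviations from group means correlated at 0.308 to 0.521 in the 9 same-number pairs of libraries and at -0.428 to -0.0106 in the others. Libraries of a group differed by 8.90 to 18.4 in chi-square per degree of freedom over genes, so none is a copy. edgeR 4.0.16 and DESeq2 1.42.0 were run with the block on the recovered reads of the 6 libraries. The limma, edgeR and DESeq2 fits were tried on simulated data. Other alternatives were pseudocounts 0.1 and 5, no filter or 5 RPM, TMM, median-of-ratios and quantile scaling, no block, no trend, and each library or replicate number left out.

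The genes compared and the gene lists were chosen with earlier results of these data known. Named are PVRL4, the interferon and receptor genes, the 20 largest rises and falls with a mean of at least 10 RPM and no overlap, up to 5 called members of each list (2 by smallest p where none passed) and up to 10 called genes a direction on no list. ADAR, B4GALT1, CXCL10, DHX58, IFI44L, IFIH1, IFITM1, IFITM3, IRF3, MYD88, PARP11, RSAD2, TRIM5 and USP18 were added after their values were seen. Some genes the rule names are not reported here. Promoter windows are from RefSeq (GRCh38.p14).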

Additional observations from a re-analysis of the deposited data

Results flagged for a closer look

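KLF11 and MT2A moved in opposite directions with the 2 PVRL4 siRNAs, and the direct comparison of the siRNAs, which uses no control library, passed the threshold for both. KLF11 had control levels of 75.5, 75.6 and 79.5 RPM. It was at 50.3, 51.2 and 52.2 RPM after siRNA 1, and after siRNA 2 at 100.03, 95.5 and 110.1 RPM, so that no 2 groups overlapped. Its difference between siRNA 1 and siRNA 2 was -0.98 on the log2 scale (limma adjusted p = 4.32e-06). MT2A had control levels of 671, 578 and 510 RPM. It was at 1086, 806 and 661 RPM after siRNA 1, and after siRNA 2 at 442, 407 and 287 RPM. Its difference between the siRNAs was 1.16 (limma adjusted p = 1.85e-06), and every siRNA 1 library was above every siRNA 2 library. The changes against control share the control libraries, and the cause of either difference was not tested.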

How the results depend on the processing

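The number of higher genes (133) was 46 with no filter, 71 with no replicate block, 54 in the 6 libraries without it and 29 without a trend; with a library left out it ran from 46 to 182, and with a replicate number left out from 61 to 156. The number of lower genes (76) was 30 with no filter, 24 with no replicate block, 24 in the 6 libraries without it, 8 without a trend and 131 in edgeR, and 11 to 59 or 17 to 41 with a library or a number left out. The 59 higher interferon-response members were 39 with no filter and 27 without a trend, and 41 to 62 with a library or number left out. The 57 genes lower than both control and siRNA 2 were 25 with no filter, 15 with no replicate block and 7 without a trend, and 11 to 42 or 13 to 27 with a library or number left out. Under TMM, median-of-ratios and quantile scaling, the pseudocounts 0.1 and 5 and the filter at 5 RPM the 4 counts moved by less than 1.5 times, and none of the called genes changed sign in any fit. PVRL4 (-0.84) missed the threshold with no filter (-0.84, adjusted p = 0.113), with no replicate block (-0.84, 0.0600), in the 6 libraries without it (-0.84, 0.0925), without a trend (-0.84, 0.0530) and in DESeq2 (-0.98, 0.0830), and ran from -0.94 to -0.67 with a library or number left out. COL1A1 (0.08) was -0.000713 without control replicate 1 and -0.073 without siRNA 1 replicate 3, in a range from -0.073 to 0.186 with a library left out, and TYK2 (0.05) was -0.0014 with quantile scaling. Counts of genes against siRNA 2 were not run in edgeR, DESeq2 or the 6-library fits, which hold no siRNA 2 reads. With no filter more genes are tested, and without a trend or the block the spread is estimated otherwise; which genes rest on that was not tested further. At 3 libraries a group, genes of few reads are limited by depth: 3 reads equal 0.280 to 0.296 RPM.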

Other observations

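Of 63 tested interferon-response genes, 37 had their highest siRNA 2 level in replicate 3, 13 in replicate 1 and 12 in replicate 2. The same count over all tested genes was not made, so whether 37 is particular to this list is not known. The summed level of the list went the other way, at 2134, 2191 and 1852 RPM in siRNA 2 replicates 1, 2 and 3, with LGALS3BP, its most abundant member there in replicates 1 and 2, at 667, 746 and 320 RPM. The 5 genes that follow were chosen after their values were seen. IFIT1 was at 5.92 RPM there, against 0.599 and 0.291 RPM in siRNA 2 replicates 1 and 2, and MX1 at 8.68 against 0.599 and 0.678 RPM. ISG15 was at 10.97 against 2.50 and 3.10 RPM, OAS1 at 14.4 against 4.29 and 6.40 RPM, and BST2 at 90.3 against 28.9 and 42.5 RPM. These levels stayed below those of siRNA 1 replicate 2, the lowest siRNA 1 library, with 46.1 RPM for IFIT1, 49.8 RPM for MX1 and 165 RPM for BST2.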
